A study of Mus musculus with 16 samples.

Results

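The 1 h response of wild-type bone marrow-derived macrophages (BMDM) to bacterial lipopolysaccharide (LPS) was read across the whole transcriptome by comparing 3 LPS libraries with 2 untreated libraries in 9614 genes. Every gene in the expression table was a member, and none was chosen here for its level. The table itself held only genes above a low level in at least 6 libraries of the series. A gene present in the untreated libraries alone could therefore not enter it. The 5 libraries were part of a series of 16. They came from the bone marrow of male C57BL/6 mice aged 8 weeks, labelled LysM-Cre:NELF-B wt/wt and called WT here, with untreated and LPS libraries from mice A and B and an LPS library alone from mouse C. LPS was given at 10 ng/ml for 1 h. Both alleles of the gene for NELF-B, a subunit of the complex that holds RNA polymerase II near promoters, were intact in these mice, which carried a Cre recombinase under the myeloid LysM promoter. BMDM from mice with the same Cre and a floxed gene (LysM-Cre:NELF-B fl/fl, called KO) gave 2 untreated and 3 LPS libraries with their own controls. They are given beside the WT values. In WT and KO alike, 3 libraries that also received dexamethasone (Dex) entered the fit to estimate the spread. Apart from checks of the method, their levels are read here for the interferon list in WT alone.

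LPS is sensed by TLR4 with its co-receptors CD14 and MD-2, and the adaptors MyD88 and TRIF pass the signal to NF-κB, to the MAP kinases and to the interferon regulatory factors. The first genes to respond are known to need no new protein, because their activators are held in the cell in an inactive form. They encode transcription factors, cytokines and chemokines, and also the inhibitors that later shut the pathway down, such as IκBα, A20 and the dual-specificity phosphatases. Type I interferon is made early in this response, and the genes it induces in turn are known to follow later.

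The macrophage identity of the cultures was read from marker genes. All 8 macrophage markers (Csf1r, Emr1, Cd68, Fcgr1, Mertk, Lyz2, Itgam and Spi1) were in the table, with a summed level of 7942 and 12460 CPM untreated (CPM, the reads of a gene scaled to a common library size) and 9763 to 12930 CPM with LPS. The markers of erythroid, NK and mast cells were not in the table, and of 8 neutrophil markers S100a8 alone was present, at 27.1 and 5.56 CPM in untreated A and B and 5.46 to 20.5 CPM with LPS. T cells, B cells, dendritic cells and endothelial cells were each represented by 1 marker (Cd4, Cd79b, Ccr7 and Pecam1), and 4 of 6 stromal markers summed to 49.2 and 83.7 CPM untreated and 64.4 to 110.5 CPM with LPS. No marker of any of these lists passed the test of LPS against untreated. Since whole cultures were measured, fewer cells of a type and less RNA per cell cannot be told apart.

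The untreated library of mouse A, called untreated A here, was unlike the other 15 libraries. Its levels correlated with theirs at a Pearson's r of 0.830 to 0.909 across genes, whereas the others correlated with each other at 0.924 to 0.993. Its deviation followed transcript length, with a Spearman's rho across genes of -0.62 between length and the difference of untreated A from untreated B. Measured against untreated A, the fifth of genes with the shortest transcripts (up to 1812 nt) had a median log2 fold change of -0.78 with LPS and the fifth with the longest (from 5151 nt) one of 0.72. Against untreated B the same medians were 0.10 and -0.05, and in the KO 0.02 and -0.0033. The 10 genes with most reads took 22.2% of the reads of untreated A and 12.7% to 14.8% of those of the other 4 WT libraries, and untreated A was also the shallowest of the 5 at 2.5e+07 reads, against 2.88e+07 to 4.39e+07. Most counts of calls are therefore given also without untreated A, and a number of genes with their value against untreated B alone. Without untreated A the only control is untreated B, so those calls and adjusted p-values hold no spread between untreated libraries. Their spread comes from the treated libraries, those of mouse B included. Genes are not independent replicates, and these correlations are descriptions.

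**Figure D1:**
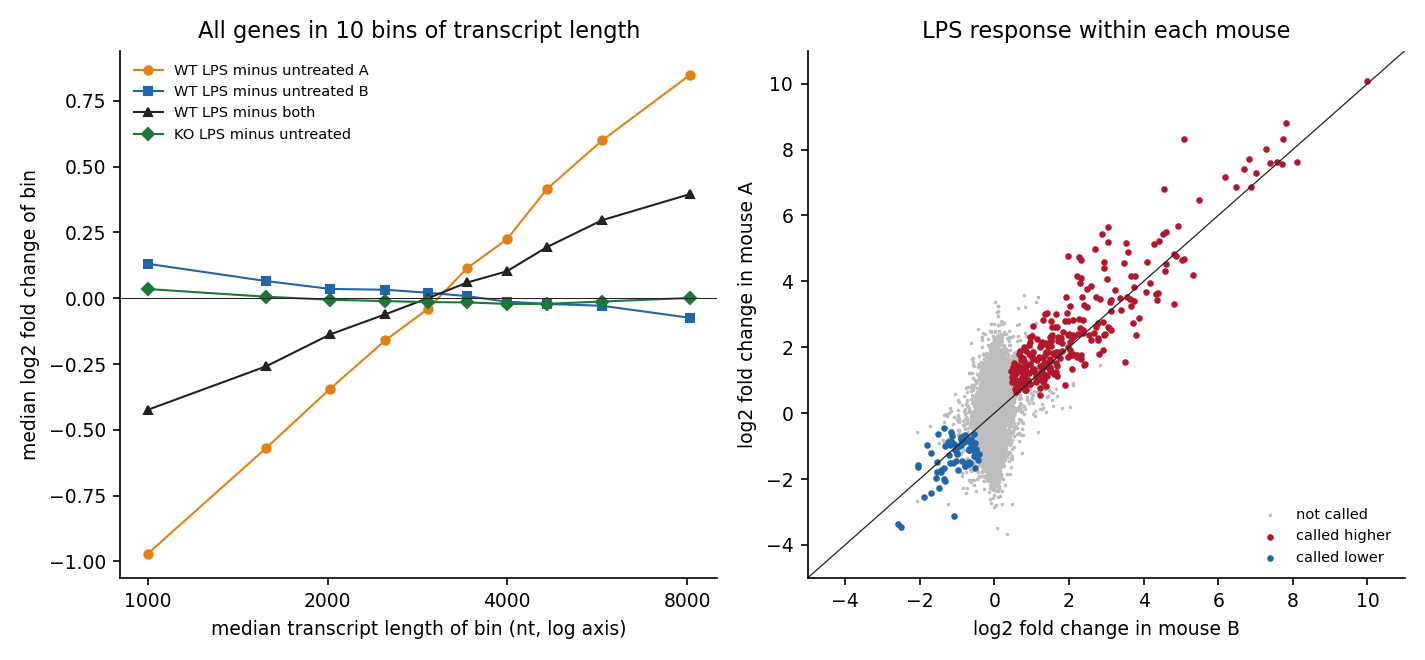
Left, the median log2 fold change with LPS in 10 bins of genes by transcript length (x axis, nt, logarithmic), taken against untreated A, untreated B, both, and in the KO. Right, the log2 fold change of each gene in mouse A (y axis) against mouse B (x axis). Against untreated A the bins run from -0.97 to 0.85, against untreated B from 0.13 to -0.07, and the 343 called genes lie along the diagonal while genes that were not called spread along the axis of mouse A.

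With LPS, 270 genes were higher and 73 lower at a false discovery rate (FDR) under 0.1 and over 1.5-fold (limma, Benjamini-Hochberg adjustment over all genes), which is 2.81% and 0.759% of the genes tested. Both groups of libraries were fully separated for all 343. Separation alone was common with 2 libraries against 3: 7.13% of all genes were over 1.5-fold higher with no overlap and 4.11% lower. The fit treated all 8 WT libraries as independent, although the LPS and the LPS with Dex libraries came from the same mice. Its adjusted p-values thus rest on fewer independent libraries than the fit assumes. The 5 compared libraries alone gave 170 genes higher and 8 lower, and a fit with mouse as a block gave 328 and 104. Without the untreated library of mouse A, 221 genes were higher (2.30%) and 42 lower (0.437%), among them 203 of the 270 and 32 of the 73. Against untreated B alone, 264 of the 270 and 70 of the 73 differed by over 1.5-fold in the same direction, and 256 and 61 did so within mouse A and within mouse B. Increases were large: 230 genes rose over 2-fold, 73 over 8-fold and 21 over 32-fold, whereas 6 of the genes that fell did so by over 4-fold. The genes called higher took 1.15% and 1.68% of the reads of the untreated libraries and 6.44% to 6.78% of those of the LPS libraries. The size of the response differed between the mice. The change was larger in mouse A than in mouse B for 68.5% of the 270 genes and 74.0% of the 73, with medians of 2.03 in A and 1.68 in B for the genes called higher. For the genes called lower the medians were -1.21 in A and -0.89 in B. The deviation of untreated A was part of each change in mouse A, and how much of these differences it made up was not tested.

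**Figure D2:**
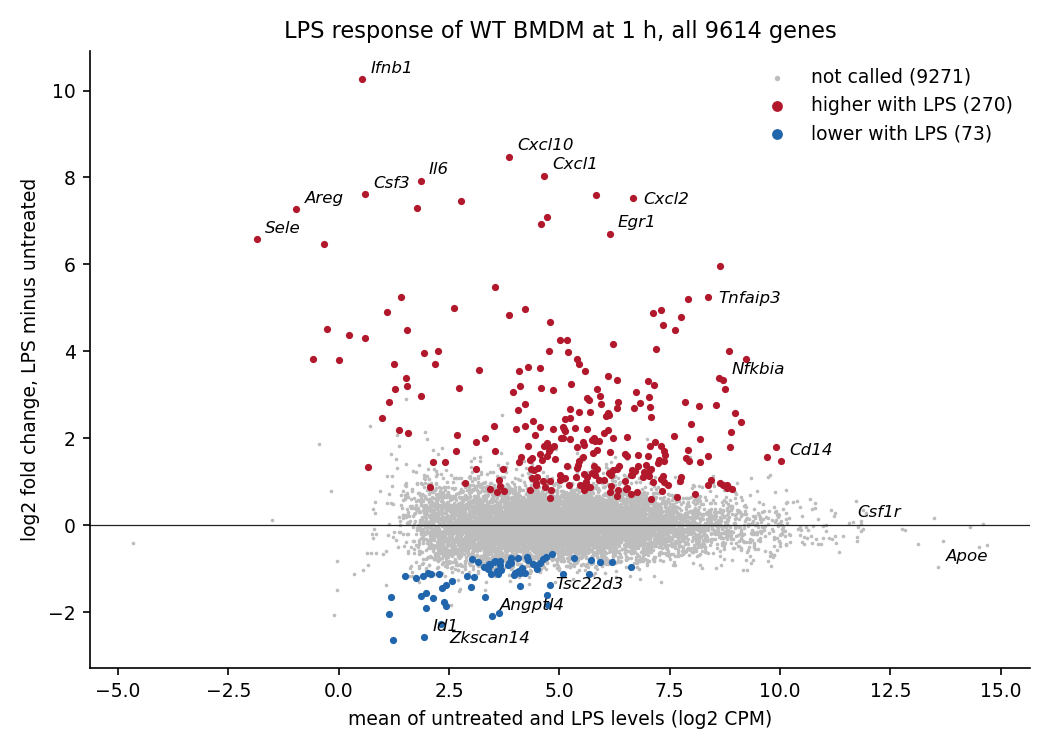
The log2 fold change with LPS (y axis) of all 9614 genes against the mean of their untreated and LPS levels (x axis, log2 CPM), from the WT libraries. The 270 genes called higher reach 10.27 on the log2 scale and the 73 called lower reach -2.63, and the macrophage markers Csf1r and Apoe at the right were not called.

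Cytokine genes gave the largest changes. Of 27 listed, 7 were not in the table, and a gene near 0 untreated could enter it only through libraries given LPS. The shares called in this and the other lists therefore describe genes that passed this filter. Over all genes tested, 2.81% were called higher and 0.759% lower. Of 20 cytokine and growth factor genes in the table, 18 were called higher, with a median log2 fold change of 4.44 over the list against 0.02 over all genes, and 16 of the 20 were called without untreated A. Ifnb1, which encodes interferon-β (chr4:88522025-88522774, minus strand, a gene of 1 exon), had 0 and 1 reads in the untreated libraries and levels of 4.93, 5.96 and 6.12 log2 CPM in LPS mice A, B and C. On so few reads the ratio of LPS to untreated was 2961 with a counting interval of 531.3 to 1.17e+05 (95%, exact), which covers counting error only. Areg, the gene for the EGF receptor ligand amphiregulin, likewise had 0 and 1 reads and then 2.27, 2.65 and 3.09 log2 CPM, a ratio of 355.7 with an interval of 63.64 to 1.407e+04. Both genes were thus at or next to 0 before LPS in mice A and B, and present in all 3 LPS libraries.

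Interleukin genes followed the same course. Il6 (chr5:30013114-30019981) was at -2.25 and -1.97 log2 CPM untreated and 5.38, 6.15 and 5.92 with LPS, a log2 fold change of 7.93 (SE 0.30, n = 2 and 3, limma adjusted p = 8.94e-06). Il1b was at 1.91 and 2.17 untreated and 9.48, 9.87 and 9.56 with LPS. Csf3, which encodes the granulocyte growth factor G-CSF, was at -3.77 and -2.66 untreated and 3.85, 4.92 and 4.43 with LPS, a log2 fold change of 7.61 (SE 0.46). The lowest LPS value of each was far above the highest untreated value, and all were called without untreated A. Il10, the anti-inflammatory member, was less even: its untreated levels were 1.02 in mouse A and 4.51 in mouse B, its LPS levels were 6.45, 7.39 and 6.49, and its log2 fold change was 4.01 from both untreated libraries and 2.27 against untreated B alone. Tnfsf9, the ligand of the costimulatory receptor 4-1BB, rose by 6.92 (SE 0.28), from 1.41 and 0.84 to 8.26, 7.72 and 8.16. Il1rn, the secreted antagonist of the IL-1 receptor, rose by 1.59 (SE 0.15). The 2 members that were not called, Tgfb1 and Il15, changed by -0.08 and 0.08.

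**Figure D3:**
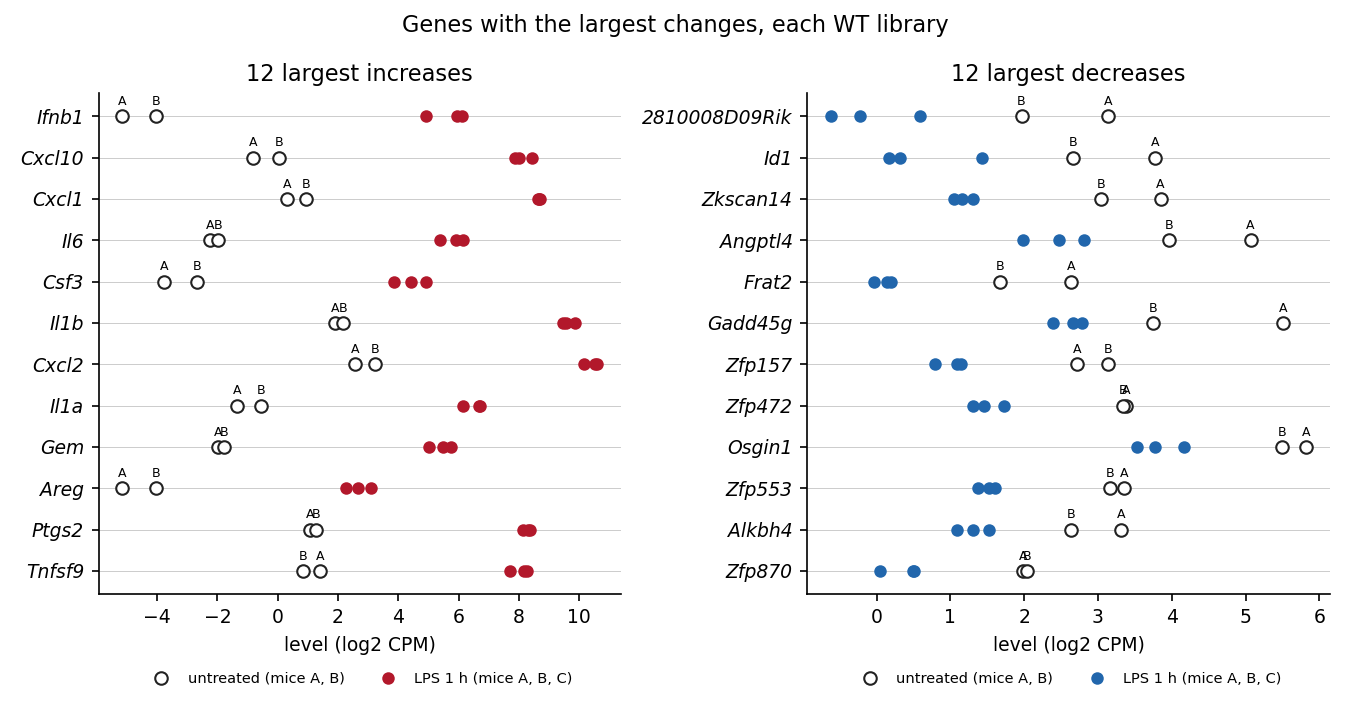
Levels (x axis, log2 CPM) of the 12 genes with the largest increases (left) and the 12 with the largest decreases (right), 1 point per WT library. Open circles are the untreated libraries of mice A and B and filled circles the 3 LPS libraries, and the circles of each gene are fully separated, with wider gaps on the left (such as -0.81 and 0.05 against 7.88 to 8.44 for Cxcl10) than on the right.

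Chemokine genes, whose products recruit neutrophils and monocytes, were called higher in 11 of 15 cases, with a median log2 fold change of 3.72, and in 9 of 15 without untreated A. Among the neutrophil attractants, Cxcl1 (chr5:90891241-90893115) was at 0.33 and 0.94 log2 CPM untreated and nearly equal in the LPS libraries at 8.65, 8.69 and 8.68, a log2 fold change of 8.04 (SE 0.19, limma adjusted p = 6.43e-07) or 263-fold. Its neighbour Cxcl2 was at 2.57 and 3.22 untreated and 10.16, 10.60 and 10.51 with LPS. Cxcl10, a chemokine for T cells that interferon also induces, had the highest fold change of the list at 8.48 (SE 0.31). Its levels were -0.81 and 0.05 untreated and 7.99, 7.88 and 8.44 with LPS. Of the monocyte attractants and macrophage inflammatory proteins, Ccl2, Ccl3, Ccl4 and Ccl7 rose by 4.27, 4.49, 5.20 and 4.27, or by 4.21, 3.84, 4.60 and 4.51 against untreated B alone. Cxcl16, Ccl6, Cx3cl1 and Cxcl14 were not called, with changes from -0.30 to 0.53. Another 5 of the 20 listed chemokine genes were not in the table. Chemokine genes near 0 untreated, such as Cxcl10, could enter it only through libraries given LPS. Cxcl16, which also encodes a scavenger receptor, differed more between untreated A (9.52) and untreated B (8.37) than its LPS levels of 8.72, 8.62 and 8.92 differed among themselves.

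Many of the chemokine genes that rose were neighbours on the genome. Ccl5, Ccl9, Ccl3 and Ccl4 were called within chr11:83525778-83664683 (GRCm38), where the gene that was not called among 5 tested was Ccl6, and Ccl2, Ccl7 and Ccl12 were called within chr11:82035571-82103400, where all 3 tested genes were called. Other neighbours were Cxcl1 and Cxcl2, Il1a and Il1b with the phosphate transporter gene Slc20a1, and the related cytokine genes Osm and Lif. In all, 34 of the 270 genes called higher (12.6%) had another within 100 kb, against 6.84% of all genes that had a called-higher gene within that distance. Without untreated A these were 28 of 221 (12.7%) against 5.85%. Cxcl10 and Cxcl3 were called with no such neighbour.

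The inducible promoters of this response are known for κB sites, to which NF-κB binds, and 5 of them with such letters close to the start are printed because their genes span the ligands (Cxcl1, Cxcl2, Il6) and the inhibitors (Nfkbia, Tnfaip3) of the pathway. Each is the 250 bases before the gene's start on GRCm38.p6 (RefSeq), 5′ to 3′ on the gene's strand, and capitals mark a match to GGGNNTTTCC on either strand. The matches lay 89 to 80 and 71 to 62 bases before the start in Cxcl1, 97 to 88 and 78 to 69 in Cxcl2, 44 to 35 in Il6, 29 to 20 in Nfkbia and 12 to 3 in Tnfaip3. The start sites are those of RefSeq. Tnfaip3 has a further start there, and the 250 bases before it (chr10:19011964-19012213) held no match.
Cxcl1 promoter, chr5:90890995-90891244, plus strand: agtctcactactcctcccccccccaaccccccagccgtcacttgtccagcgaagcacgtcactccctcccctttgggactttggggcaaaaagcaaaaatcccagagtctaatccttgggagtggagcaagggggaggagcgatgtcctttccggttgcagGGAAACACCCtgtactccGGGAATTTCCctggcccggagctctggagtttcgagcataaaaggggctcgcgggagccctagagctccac
Cxcl2 promoter, chr5:90903649-90903898, plus strand: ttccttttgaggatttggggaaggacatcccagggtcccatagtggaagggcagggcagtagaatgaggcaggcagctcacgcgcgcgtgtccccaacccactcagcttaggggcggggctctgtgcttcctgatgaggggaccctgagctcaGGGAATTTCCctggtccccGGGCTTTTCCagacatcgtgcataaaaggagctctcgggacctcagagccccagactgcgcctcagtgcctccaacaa
Il6 promoter, chr5:30012864-30013113, plus strand: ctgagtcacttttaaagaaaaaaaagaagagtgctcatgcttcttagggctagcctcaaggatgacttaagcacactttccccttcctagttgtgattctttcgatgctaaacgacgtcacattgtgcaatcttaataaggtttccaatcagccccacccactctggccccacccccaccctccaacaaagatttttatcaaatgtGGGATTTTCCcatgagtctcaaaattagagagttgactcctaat
Nfkbia promoter, chr12:55492648-55492897, minus strand: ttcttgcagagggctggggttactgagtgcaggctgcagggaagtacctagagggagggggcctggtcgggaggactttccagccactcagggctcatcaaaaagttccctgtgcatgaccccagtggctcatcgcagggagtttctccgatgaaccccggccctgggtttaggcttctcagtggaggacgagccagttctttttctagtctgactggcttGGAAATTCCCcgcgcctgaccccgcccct
Tnfaip3 promoter, chr10:19015411-19015660, minus strand: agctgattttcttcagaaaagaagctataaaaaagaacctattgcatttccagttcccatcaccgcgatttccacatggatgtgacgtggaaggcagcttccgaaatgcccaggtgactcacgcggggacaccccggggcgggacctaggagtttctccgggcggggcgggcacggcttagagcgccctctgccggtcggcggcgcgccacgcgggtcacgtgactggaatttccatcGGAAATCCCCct

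Promoters of 250 bases before to 50 after the start were matched by symbol for 7399 of the 9614 genes, 215 of the 270 called higher and 56 of the 73 called lower. The κB letters GGGNNTTTCC, searched on both strands, were in 18 of the 215 promoters of genes called higher (8.37%), in 3 of the 56 of genes called lower (5.36%) and in 2.15% of the promoters of all genes tested, with 1.63% of all 32851 promoters in the RefSeq set. The TATA letters TATAAA were in 43 of the 215 (20%), 4 of the 56 (7.14%) and 8.30% of all genes tested. CRE letters (TGACGTCA), bound by CREB and ATF factors, were in 9.30%, 1.79% and 3.80%, and AP-1 letters (TGANTCA) in 10.2%, 1.79% and 6.14%. Matches to the ISRE were in 6.98%, 1.79% and 3.93%, and to the CArG box in 2.33%, 1.79% and 1.49%. Of the genes with the largest increases, Ifnb1, Cxcl10, Il1b and Ptgs2 held no match to GGGNNTTTCC in the 250 bases before their start. The search covers these exact letters only and does not show that κB sites were absent. The letters gggaaattcc, in both Ifnb1 and Cxcl10, were missed for an A in place of the first T. Without untreated A the shares among the 173 matched genes called higher were 7.51% (κB), 18.5% (TATA), 10.4% (CRE), 5.78% (ISRE) and 2.31% (CArG), AP-1 letters were in 19 of them, and the share of AP-1 letters among the 36 matched genes called lower was 8.33%. The κB letters were also in 8.33% of those 36, above the 7.51% of genes called higher, so their order with all libraries was reversed. The other letters remained rarer among genes called lower. These shares describe letters in a fixed window and carry no test.

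NF-κB subunits and their inhibitors were called higher in 9 of 16 cases (median log2 fold change 1.02) and in 10 without untreated A. The list held 11 inhibitors, 7 of them called, and 5 subunits, 2 of them called. Tnfaip3, which encodes the ubiquitin-editing enzyme A20, was at 5.30 and 6.16 log2 CPM untreated and 10.97, 11.08 and 10.88 with LPS, a log2 fold change of 5.25 (SE 0.25, limma adjusted p = 3.27e-05). Nfkbia, which encodes IκBα, went from 6.79 and 7.27 to 10.23, 10.40 and 10.47, a log2 fold change of 3.34 (SE 0.19). Nfkbie and Nfkbid, for further IκB proteins, rose by 2.51 and 1.99. Nfkbiz, for the IκBζ that acts in the nucleus, rose by 3.15, and by 2.01 against untreated B alone, since its untreated levels were 6.04 and 8.32. The inhibitors Nfkbib, Bcl3, Cyld and Tnip2 were not called, with changes of 1.10, 0.52, 0.35 and -0.01, and Nfkbib was called without untreated A. Among the subunits, Rel went from 2.17 and 4.40 to 6.35, 6.62 and 6.26 (3.12, or 2.01 against untreated B), and Nfkb2 rose by 0.79 and was not called without untreated A. Rela, Relb and Nfkb1 were not called at 0.43, 0.48 and 0.72, and the change of Rela against untreated B alone was 0.60.

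Of 23 genes for the receptor and its adaptors, 3 were called higher (13.0%) and 1 lower (4.35%), against 2.81% and 0.759% of all genes, with a median change of 0.32, or 0.10 against untreated B alone. Without untreated A 2 were higher and 0 lower by limma. Cd14, the LPS co-receptor, went from 9.52 and 9.05 to 10.78, 10.71 and 10.79 log2 CPM, a log2 fold change of 1.47 (SE 0.18), and Irak2, a kinase of the MyD88 complex, rose by 1.17. Ticam1, the gene for TRIF, rose by 1.17 with both untreated libraries and was not called without untreated A. Tab1, the member called lower, was at 5.31 and 4.67 untreated and 4.04 to 4.19 with LPS, and was not called without untreated A or in the KO. Tlr4 itself was at 5.34 in untreated A and 6.61 in untreated B and at 6.54, 6.60 and 6.22 with LPS, so that its LPS levels lay below that of untreated B.

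Immediate early transcription factors of the AP-1, EGR and NR4A families were called higher in 13 of 20 cases (median 1.97), and in 10 without untreated A. Egr1 was at 2.12 and 3.45 log2 CPM untreated and 9.29, 9.64 and 9.54 with LPS, a log2 fold change of 6.71 (SE 0.35, limma adjusted p = 4.20e-05). Maff, a small Maf protein, went from 1.87 and 1.61 to 6.54, 6.69 and 6.89, and Egr2 and Egr3 rose by 4.68 and 4.50. Of the AP-1 subunits, Fosb, Junb, Jun and Fos rose by 3.79, 2.73, 2.02 and 1.92, the last not called without untreated A. Atf3 and Jund were not called, with changes of 0.68 and 0.69. Jund was highest in LPS mouse C at 7.05, against 4.69 and 5.41 in mice A and B. In the list of Kruppel-like, MYC and BTG genes, 5 of 16 were called higher (median 0.85) and 4 without untreated A. These were Klf6 (2.38), Myc (2.60), Mxd1 (1.82), whose product competes with MYC for a shared partner, and the antiproliferative genes Btg1 (1.11) and Btg2 (2.85).

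Genes whose products dampen signalling rose at the same time. In the list of MAP kinase phosphatases and other signal feedback genes, 14 of 24 were called higher and 1 lower (median 1.96), with 14 and 0 without untreated A. Dusp1, the phosphatase of p38 and JNK, was at 4.52 and 5.15 log2 CPM untreated and 9.35, 9.97 and 10.04 with LPS, a log2 fold change of 4.95 (SE 0.30, limma adjusted p = 7.60e-05). Socs3, an inhibitor of the IL-6 receptor, went from 4.97 and 5.11 to 9.51, 9.72 and 9.72 (4.61, SE 0.15). Dusp2 and Errfi1, the latter an inhibitor of the EGF receptor, rose by 3.98 and 3.83. Gadd45g was the member called lower, at 5.51 and 3.75 untreated and 2.39, 2.66 and 2.79 with LPS (-2.02, SE 0.46). Its relatives Gadd45a and Gadd45b rose by 2.27 and 1.94, so members of this family changed in opposite directions, although the decrease of Gadd45g was -1.13 against untreated B alone and was not called without untreated A (limma adjusted p = 0.108). Among mRNA decay factors 3 of 15 were called higher (median 0.46), with the same number without untreated A. Zfp36, the gene for tristetraprolin, which destabilises cytokine mRNA, went from 6.53 and 7.13 to 10.47, 11.30 and 10.75 (4.01, SE 0.33). The endoribonuclease genes Zc3h12c and Zc3h12a rose by 3.35 and 0.92.

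Interferon-stimulated genes and IRF genes differed among the LPS libraries. Of 34 members 5 were called higher (median 0.61), 2 were called without untreated A and 10 with the mouse as a block (1 lower). Irf1, which NF-κB itself can induce, and Gbp5, a guanylate-binding protein, were the pair called in each of these fits. Gbp5 was at 1.23 and 1.64 log2 CPM untreated and 6.37, 5.92 and 6.50 with LPS, a log2 fold change of 4.83 (SE 0.22). The antiviral gene Rsad2 was at 5.45 and 5.68 untreated and at 8.23, 7.64 and 9.64 in LPS mice A, B and C. Its log2 fold change of 2.94 had an adjusted p of 0.0634 (limma) with all libraries and 0.301 without untreated A. Irf7, the amplifier of the interferon response, was at 7.15 and 7.04 untreated and at 6.17, 6.80 and 8.70 with LPS. For Irf7 the LPS libraries of mice A and B were thus below both untreated libraries and that of mouse C above them.

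The level of this list was highest in mouse C. Of the 34 genes, 30 (88.2%) were highest in mouse C among the 3 LPS libraries, against 34.2% of all genes tested, and the median difference of C from the mean of A and B was 1.21 on the log2 scale. The same mouse stood out with LPS and Dex together, where 31 of the 34 were highest in C (33.0% of all genes) with a median difference of 1.17. Within mouse A the median change of the list with LPS was 0.14 and within mouse B -0.02. Without the LPS library of mouse C 3 members were called. No untreated library of mouse C was in the table, so a high level of these genes before LPS and a larger response of that mouse cannot be told apart. The 31 respiratory chain genes were also mostly highest in LPS mouse C (27), as were 51 of 77 ribosomal protein genes and 22 of 32 cell cycle genes.

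Surface molecules for T cell contact and adhesion were called higher in 6 of 19 cases (median 0.58), 5 without untreated A. Sele, the gene for the adhesion molecule E-selectin, had 0 reads in both untreated libraries and 1.72, 1.33 and 1.26 log2 CPM with LPS, and was at least 46.83-fold higher against a floor of 3 reads over both untreated libraries. Cd69, an early activation receptor, went from 2.19 and 2.77 log2 CPM to 5.72, 6.34 and 6.29 (3.63, SE 0.34), and Cd83, Icosl and the integrin ligand Icam1 rose by 2.49, 2.29 and 2.06. Among G protein-coupled receptors 7 of 20 were called higher (median 0.80), with the same number without untreated A. They were receptors for fatty acids and other lipids, complement, purines and nicotinic acid. Gpr84, a receptor for medium-chain fatty acids, rose by 2.79 (SE 0.47). The adenosine receptors Adora2a and Adora2b, which raise cAMP, rose by 2.28 and 1.71, and Hcar2 by 1.91. Of 14 prostaglandin and leukotriene genes 2 were called higher (14.3%, median 0.10), against 2.81% of all genes. Ptgs2, the inducible cyclooxygenase (chr1:150100031-150108227), was at 1.08 and 1.28 untreated and 8.36, 8.30 and 8.14 with LPS, a log2 fold change of 7.08 (SE 0.14, limma adjusted p = 5.61e-07), and Ptger4, a receptor for its product prostaglandin E2, rose by 1.84. Ptgs1, the constitutive enzyme, had a change of -0.64 and was not called.

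Genes of cell death and survival were called higher in 5 of 24 cases and lower in 1 (median 0.47), and the counts without untreated A were also 5 and 1. Pmaip1, for the pro-apoptotic protein NOXA, and Cflar, for the caspase-8 inhibitor c-FLIP, rose by 2.39 and 2.33, so that members on both sides of the decision between death and survival rose. The pro-apoptotic gene Bmf was the member that fell, from 3.68 and 4.62 to 2.47, 2.92 and 2.12 (-1.65, SE 0.35, limma adjusted p = 0.0591). Bcl2a1b and Bcl2a1d, near-identical copies between which reads may be split, had changes of 1.00 and 1.08 and were not called. Without untreated A, Bcl2a1b and the survival gene Mcl1 were called (limma adjusted p = 0.0271 and 0.00782), with changes of 1.35 and 1.05 against untreated B alone. Of 32 cell cycle genes 3 were called higher (median 0.25) and 2 without untreated A, where Ccng2 was not called. They were the cell cycle inhibitor Cdkn1a (1.48), Ccng2 (1.81) and Mki67 (1.24), or 9.38% of the list against 2.81% of all genes. Of 23 hypoxia and glycolysis genes the glucose transporter Slc2a1 (1.05) alone was called (4.35%, median 0.06), near the 2.81% of all genes. The lipid droplet gene Hilpda had the largest change of the list at 1.57 and was not called. The glycolytic enzymes Pkm, Aldoa and Ldha had changes of -0.37, -0.29 and -0.32, and of 0.24, 0.27 and 0.28 against untreated B alone. Each was higher in untreated A than in untreated B or any of the 3 LPS libraries. Macrophage receptors and lineage factors were called higher in 1 of 29 cases (3.45%, median 0.05), near the 2.81% of all genes. The gene was Tfec (1.27), which was not called without untreated A. Csf1r, at 11.36 and 11.70 untreated and 11.54, 11.74 and 11.47 with LPS, differed by less than its spread between libraries.

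**Figure D4:**
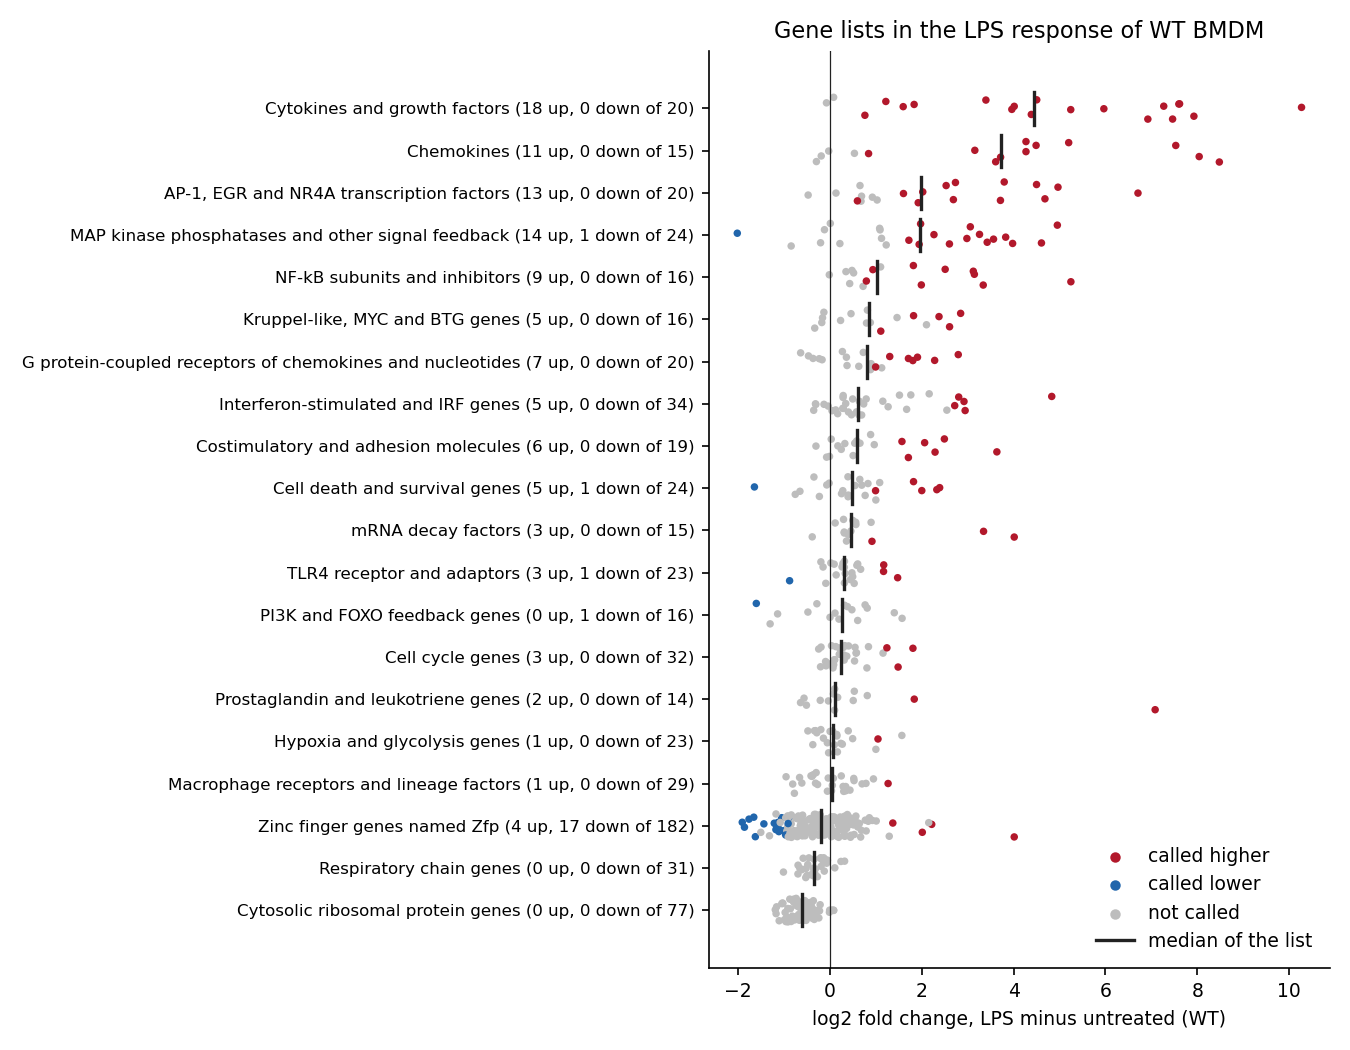
The log2 fold change with LPS (x axis) of every member of 20 gene lists, 1 point per gene, with the median of each list as a bar and the counts called in each direction beside its name. The lists run from cytokines, with a median of 4.44, to cytosolic ribosomal protein genes, at -0.61, a value that was 0.03 against untreated B alone.

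Genes called lower were fewer and their changes smaller. The table could not hold a gene present in the untreated libraries alone, and how far this bears on the counts was not tested. Zkscan14, a zinc finger gene (chr5:145194946-145201868, minus strand), was at 3.85 and 3.04 log2 CPM untreated and 1.30, 1.16 and 1.05 with LPS, a log2 fold change of -2.28 (SE 0.30, limma adjusted p = 0.0058), and it was called without untreated A (0.022). Tsc22d3, which encodes the leucine zipper protein GILZ (chrX:140539528-140600659, minus strand), was at 5.75 and 5.28 untreated and 3.76, 3.92 and 4.05 with LPS, a log2 fold change of -1.60 (SE 0.21). It was the member called lower among 16 genes of PI3K and FOXO feedback (median 0.26). Txnip, from the same list, was at 4.58 and 6.54 untreated and up to 4.47 with LPS. It was called without untreated A and not with it, and its level in untreated A was near those of the LPS libraries.

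Others of the largest decreases were not called without untreated A. Id1, an inhibitor of helix-loop-helix transcription factors (chr2:152736251-152737410), went from 3.77 and 2.67 to 0.32, 0.17 and 1.43 (-2.58, SE 0.53). Its limma adjusted p was 0.0519 with all libraries and 0.298 without untreated A. Angptl4, an inhibitor of lipoprotein lipase, went from 5.07 and 3.96 to 2.80, 2.47 and 1.98 (-2.10, SE 0.40), and Frat2, an activator of Wnt signalling, from 2.63 and 1.67 to 0.20, -0.03 and 0.15 (-2.05, SE 0.37). For Id1, Angptl4 and Frat2 alike, untreated A was the higher of the untreated libraries, and all 3 were called lower in the KO with changes of -1.90, -1.18 and -2.04. Osgin1, an oxidative stress-induced growth inhibitor, fell by 1.83 in WT (5.82 and 5.49 to 3.77, 4.16 and 3.53) and had a change of -0.54 in the KO that was not called. The difference between the genotypes was 1.29 with a limma adjusted p of 0.690.

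Zinc finger genes stood out among the decreases. Of the 182 genes named Zfp in the table, 17 were called lower (9.34%) and 4 higher, so that 23.3% of the genes called lower bore this name against 1.89% of the genes tested. Most Zfp genes encode DNA-binding proteins with C2H2 zinc fingers, many of them with a repressive KRAB domain. Zfp472 was at 3.38 and 3.34 log2 CPM untreated and 1.73, 1.30 and 1.46 with LPS, a log2 fold change of -1.86 (SE 0.21, limma adjusted p = 0.00289), and Zfp157 went from 2.71 and 3.13 to 1.14, 1.10 and 0.80 (-1.91, SE 0.27). Zfp553, Zfp870 and Zfp623 fell by 1.76, 1.66 and 1.62, and Zfp472 and Zfp870 were neighbours within chr17:32879219-32979233. The 17 decreases ran from -0.90 to -1.91. The shift reached beyond the genes called. Of the 182, 62.6% had a negative change against 48.4% of all genes, and against untreated B alone 80.2% against 47.7%. The median change of the list was -0.20, and -0.33 against untreated B alone. Without untreated A 12 were called lower and 5 higher, and with libraries left out the count lower ran down to 5 without the LPS library of mouse C. In the KO, 55 were called lower (median -0.36), among them 16 of the 17. The 4 called higher included Zfp36, which is named for a different, RNA-binding type of finger, Zfp131, Zfp263 and Zfp719.

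For genes of ribosomal proteins and the respiratory chain the median change depended on which untreated library was used. Of the 77 ribosomal protein genes 74 had a negative change, with a median of -0.61. Against untreated B alone the median was 0.03 and in the KO 0.02. None was called by limma, 6 were lower at an unadjusted p under 0.05, and in a fit of all 16 libraries 4 were called lower. Of the 31 respiratory chain genes 28 had a negative change (median -0.35, and 0.12 against untreated B alone), and with limma 0 were called and 0 had an unadjusted p under 0.05.

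Genes that responded were short. The median span on the genome was 14.9 kb for the genes called higher and 9.36 kb for those called lower, against 24.5 kb for all genes tested. Spans over 50 kb were found in 34 of the 270 (12.6%) and 3 of the 73 (4.11%), against 27.1% of all. Up to 3 exons were annotated for 86 of the 270 (31.9%) and 32 of the 73 (43.8%), against 11.1% of all. Genes with spans of up to 8.87 kb were called higher in 4.91% of cases and lower in 1.88%, and those over 65.8 kb in 1.25% and 0.104%. The medians were 13.6 and 11.8 kb for the calls without untreated A and 14.1 and 12.4 kb for the KO calls. LPS minus untreated B still had a rho of -0.18 with transcript length across genes, and the KO change one of -0.05. Median transcript length hardly differed in the calls with all libraries, at 2928 nt (higher), 2964 nt (lower) and 3163 nt (all genes). The shares called did vary over 10 bins of transcript length. They ran from 4.3% to 1.5% for genes called higher and from 1.3% to 0% for genes called lower, both lowest in the longest bin. The medians for genes called higher and lower were further apart without untreated A, at 2790 and 3342 nt, and in the KO, at 2862 and 3740 nt.

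**Figure D5:**
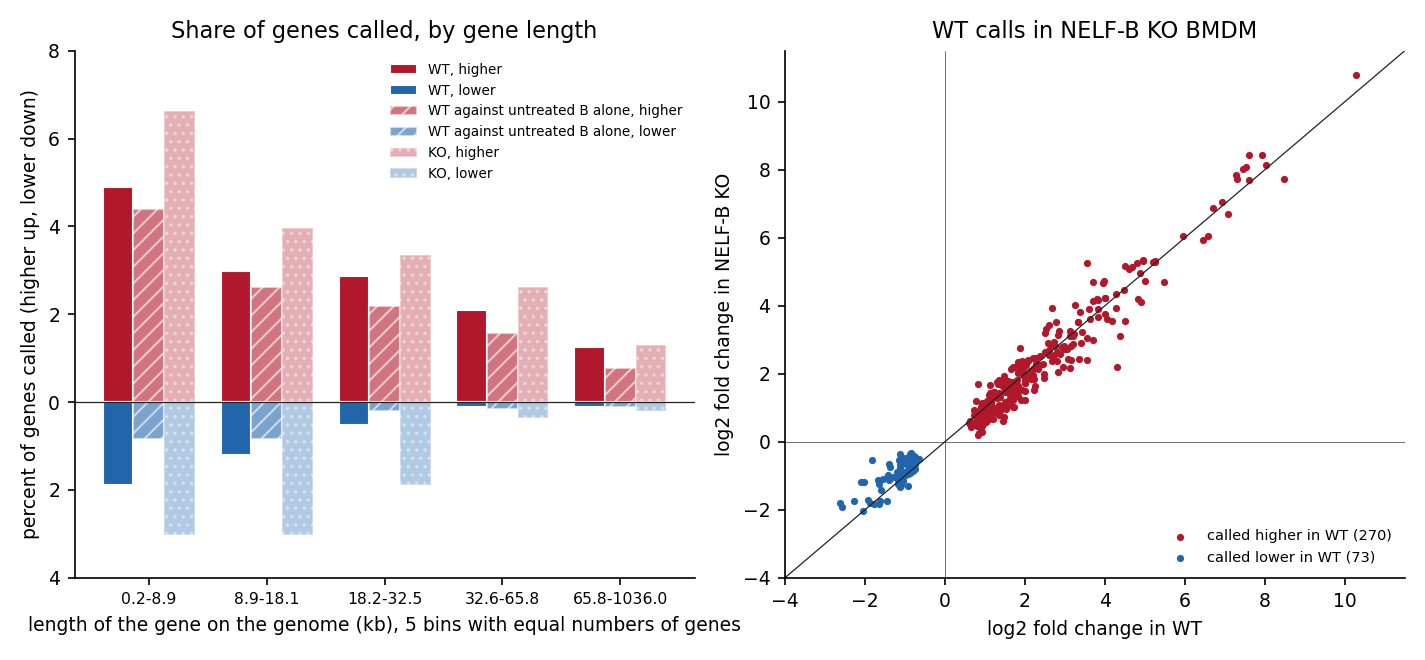
Left, the percentage of genes called higher (up) and lower (down) with LPS in 5 bins of gene length on the genome (x axis, kb), for WT, for WT without untreated A (drawn as against untreated B alone) and for the KO. Right, the log2 fold change in the KO (y axis) against that in WT (x axis) of the 343 WT calls. The share called higher falls from 4.91% in the shortest bin to 1.25% in the longest in WT, and every WT call has the same sign in the KO.

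The KO libraries, which share no control with WT, gave the same directions. With LPS 342 genes were higher (3.56%) and 165 lower (1.72%) in the KO. All 270 genes called higher in WT had a positive change in the KO and 248 of them were called, which is 91.9% of the WT and 72.5% of the KO calls. All 73 genes called lower in WT had a negative change and 52 were called, 71.2% of the WT and 31.5% of the KO calls. The median log2 fold change of the genes called higher was 1.91 in WT and 1.84 in the KO, and that of the genes called lower -1.10 and -0.89. Against untreated B alone the WT medians were 1.75 and -0.94. For the difference between the genotypes in the LPS response, 0 genes passed limma at an FDR under 0.1, 221 had an unadjusted p under 0.05, and the smallest adjusted p was 0.690. Of the 343 WT calls 25 had an unadjusted p under 0.05 for this difference, and their KO minus WT differences had a median size of 0.28 on the log2 scale and ran from -2.11 to 1.69. The upper end was Phlda1, a gene of the feedback list, which rose by 3.56 in WT and 5.25 in the KO, and Il1b rose by 7.60 and 8.44 and Rel by 3.12 and 2.16. Against untreated B alone the WT changes of Il1b and Rel were 7.47 and 2.01. Cxcl1, with 1 of the smaller differences, was at 0.29 and 0.38 log2 CPM in the untreated and 8.25, 8.74 and 8.40 in the LPS libraries of the KO, a difference from the WT response of 0.09. Tnfaip3 was at 5.88 and 5.83 untreated and 11.17, 11.28 and 11.08 with LPS with a difference of 0.07. A p that misses the threshold does not show that the responses were equal.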

How the data were processed

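RNA from BMDM was sequenced as 50 bp paired reads, and per the labels and the study's methods the authors counted unique exon reads on mm10 in CLC Bio Genomic Workbench and scaled them with edgeR by a weighted trimmed mean. CASAVA 1.8 and FastQC are named in the submitters' processing notes. The deposited unit was log2 CPM, which the authors gave for 9614 genes in 16 libraries. The filter behind these genes is not given in the sources used here. Each gene reached at least 0.537 log2 CPM in 6 libraries, so a gene present in the 4 untreated libraries alone could not be in the table. The p-value and FDR columns of the deposited table hold the authors' own pairwise comparisons and were not used. Below 3 CPM, 100% of values were whole multiples of 1 read (tolerance 0.1 read), from which library totals of 2.5e+07 to 4.39e+07 reads were computed for the 5 libraries compared. Intervals and floors from reads cover counting error only.

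Groups and mice came from the labels. Levels were analysed on the log2 scale as deposited, where a log2 of -5.152 stands for 0 reads, which understates the change of genes near 0. The test was limma 3.58.1 (R 4.3.3; lmFit, eBayes with trend) over all genes, with the 8 WT libraries as 3 groups and LPS minus untreated as the contrast, called at an FDR under 0.1 and over 1.5-fold. The KO was fitted the same way, and the genotype difference as an interaction over all 16 libraries. On simulated data with 200 changed of 9614 genes, the WT test recovered 39.5% at 2-fold, 85.5% at 4-fold and 92.5% at 8-fold, with 12, 27 and 30 false calls. The simulated noise was independent between genes and libraries. It held neither the length pattern of untreated A nor the likeness of libraries from the same mouse, so these rates need not hold for the real data. Same-numbered samples came from the same mouse by the labels. Their deviations from the group means correlated at 0.448 (WT untreated and LPS, where 2 mice make both values equal) and 0.885 to 0.939 (LPS and LPS with Dex). Counts from a fit with mouse as a block are given for the totals and the interferon list. That fit also moved other lists, such as G protein-coupled receptors (10 higher instead of 7), Zfp genes (22 lower instead of 17) and cell death genes (4 higher instead of 5). Gene models were GENCODE vM21 (GRCm38, 9575 of 9614 genes matched by symbol) and promoters RefSeq GRCm38.p6. Tables were summarised with Python 3.11.15, pandas 2.3.3, numpy 2.4.6 and scipy 1.17.1.

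The members and the 20 gene lists were chosen with earlier results of these data known. Genes were named by a rule: the 12 largest called changes each way with separated groups, a mean above log2 CPM 0 in the higher group and over 1.5-fold against untreated B alone; in each list up to 4 called members each way and the 3 highest-level members not called; and up to 5 called genes with at most 3 reads in both untreated libraries. Other genes named, list members included, were chosen after their values were seen. Alternatives were other sets of libraries, the mouse block, leaving out each library, other thresholds, a filter at mean log2 CPM 1, median centring, log2(CPM + 1), array weights, voom on the recovered reads and a loess correction for transcript length with span 0.3.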

Additional observations from a re-analysis of the deposited data

How the results depend on the processing

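No named gene that was called changed direction in any of 21 alternatives, and 42 of the 76 called named genes were called in every one but array weights and the fit without untreated B. The untreated and LPS values of every called gene were separated, so leaving out a library or changing a threshold could not reverse a direction. The counts moved more. Beside 270 higher and 73 lower, the 5 compared libraries alone gave 170 and 8, mice A and B alone 139 and 6, all 16 libraries 578 and 302, and all 16 without untreated A, chosen after seeing the data, 297 and 118. Leaving out 1 library gave 178 to 2281 higher and 17 to 2032 lower. The upper ends are the fit without untreated B, where untreated A alone is the control, and the lower ends the fit without LPS mouse C. The other LPS libraries left 182 and 21 (without A) and 204 and 25 (without B), the LPS with Dex libraries 34 to 45 lower, and the fit without untreated A 221 and 42. Array weights, which gave each untreated library 0.172 and the others 1.29 to 2.44, left 79 higher and 0 lower (103 lower at an unadjusted p under 0.05 and over 1.5-fold). An unadjusted p under 0.01 gave 132 lower and an FDR under 0.05 gave 38. The loess correction for transcript length gave 290 higher and 180 lower, so that 61.7% of calls were higher against 78.7% as reported. With mouse as a replicate block 328 genes were higher and 104 lower, 250 and 61 of them shared with the reported calls, and the KO gave 431 and 247. Without 1 library the KO gave 276 to 346 higher and 52 to 134 lower, 52 without untreated B of the KO and 75 without untreated A of the KO, and the genotype difference 0 to 4666 genes, the last without WT untreated B. In the other 10 alternatives it was 0 by limma, with 69 to 396 genes at an unadjusted p under 0.05. The cause of these shifts was not tested beyond the smaller number of libraries or genes that an alternative leaves. Depth limits the lowest genes: 3 reads are 0.136 and 0.0977 CPM in untreated A and B.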

Other observations

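Genes outside the lists are given here as single values, chosen after those values were seen, and they stand for no group. Nlrp3, the sensor of an inflammasome, was at 4.71 and 5.61 log2 CPM untreated and 9.25, 9.09 and 9.29 with LPS, a log2 fold change of 4.06 (SE 0.26, limma adjusted p = 0.000107), or 3.60 against untreated B alone. Tlr2, a receptor for bacterial lipoproteins, was at 7.82 in both untreated libraries and 10.11, 9.89 and 9.90 with LPS, and Nod2, a sensor of bacterial cell wall fragments, and Clec4e, a receptor for mycobacterial glycolipid, rose by 3.07 and 3.24 (2.73 and 3.67 against untreated B alone). Irg1, whose product makes itaconate, rose by 3.83 and the histone demethylase gene Kdm6b by 3.54 (4.36 and 2.72 against untreated B alone). Ppp1r15a, a phosphatase subunit that restores translation after stress, went from 5.66 and 5.08 to 9.86, 10.40 and 10.22 (4.79, SE 0.25). Plk2 and Mdm2, both known as p53 targets, rose by 3.33 and 1.62. The genes named so far were also called without untreated A. Tnf itself, from the cytokine list, was at 5.09 and 6.20 untreated and 11.55, 11.67 and 11.60 with LPS.

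Of single genes called lower, also chosen after their values were seen, Pars2, a mitochondrial prolyl-tRNA synthetase, went from 2.94 and 2.56 to 1.16, 1.14 and 1.27 log2 CPM, a log2 fold change of -1.56, or -1.37 against untreated B alone. The homeobox gene Hhex and the cannabinoid receptor gene Cnr2 fell by 1.10 each, and Cnr2 was not called without untreated A (limma adjusted p = 0.273). Genes annotated as other than protein-coding made up 7 of the 270 genes called higher (2.59%) and 1 of the 73 called lower (1.37%), against 84 of all genes tested (0.874%). The last was the lincRNA 2810008D09Rik, at 3.13 and 1.96 untreated and -0.23, -0.62 and 0.59 with LPS. It was not called without untreated A (limma adjusted p = 0.387). Hspa1a, the inducible heat shock gene, had a log2 fold change of 3.83, and was not called without untreated A (limma adjusted p = 0.174), with levels of -2.61 and -2.39 untreated and 1.14, 0.86 and 2.00 with LPS, and it shares reads with its near-identical copy Hspa1b, so that its own level is uncertain.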
